A study of Mus musculus with 26 samples.

Results

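Tcstv1, Tcstv3 and AF067063 are 3 related protein-coding genes on mouse chromosome 13, and their levels were followed here through all 13 groups of an RNA-seq series on totipotent-like mouse embryonic stem cells (ESCs). They were chosen by name, as 3 of the 55291 genes in the deposited count table, because their measured levels rose steeply in cells that overexpressed Dux over untreated ESCs. That rise is therefore given as a description, without a test. Ranked by the fitted log2 difference among 20953 genes, AF067063 stood at place 1, Tcstv3 at place 54 and Tcstv1 at place 93. AF067063 had no counts in ESC, so its fitted value depends on the prior count of the fit and its place is not established. No other gene name in the table starts with Tcstv.

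All 26 libraries were made from poly(A) RNA of the R1 line of ESCs, cultured with LIF, as 13 groups of 2 replicates. The WT groups were untreated cells (ESC), cells given DMSO as the control (DMSO), cells given 0.53 µM retinoic acid for 48 h (RA) and cells given 4 nM pladienolide B, an inhibitor of splicing, for 4 days (PlaB). A further 3 WT groups expressed a transgene after 24 h of doxycycline, which the treatment protocol gives at 4 µg/mL: Dux (Dux OE), Dux with its arginine at position 70 replaced by alanine (Dux R70A OE) or Zscan4 (Zscan4 OE). Cells with Dux knockdown by shRNA (Dux KD) were sequenced with RA, with PlaB and with Zscan4 OE. Cells in which CRISPR had removed a super-enhancer near the Tdpoz genes (SE KO) were sequenced with RA, with PlaB and with Dux OE. Both Dux KD Zscan4 OE libraries carry the treatment label "no" and no time, so their induction rests on the titles. SE KO RA replicate 1 is titled as SE KO but its genotype label reads WT, and the comparisons with SE KO RA are also given without it. Uninduced transgenic lines, cells with a control shRNA and untreated SE KO cells were not analysed here, and the labels name neither the shRNA nor the number of clones. The study calls the replicates biological where it sets SE KO beside WT cells with Dux OE and with RA. For the other groups nothing in the sources used here says that replicates were separate cultures, so their spread may be technical. The p-values rest on a spread per gene that 1 model estimated from all 26 libraries. How far replicates lay apart differed widely between groups. A chi-square of replicate differences, divided by its degrees of freedom, ran from 1.55 in Dux KD RA to 30.2 in SE KO PlaB. It was 26.1 in Dux KD Zscan4 OE and at most 9.81 in any other group. P-values of comparisons with SE KO PlaB or Dux KD Zscan4 OE may thus be too small.

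Tcstv RNAs are abundant in the mouse 2-cell embryo and in the few ESCs that enter a 2-cell-like (2C) state, as are those of the Zscan4 family. Dux, a double homeobox factor encoded by Duxf3, acts at the start of embryonic transcription and switches on many 2C genes. Zscan4 proteins act at telomeres, and Tcstv1 and Tcstv3 have themselves been linked to telomere length in ESCs. The role of AF067063 is little known.

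AF067063 lies at chr13:119827961-119830216 on the minus strand, Tcstv1 at chr13:119893388-119894785 on the minus strand and Tcstv3 at chr13:120316878-120318178 on the plus strand (mm10). In GENCODE M21, each of the 3 genes has 2 coding transcripts, of 1 and 2 exons, and a coding part held in 1 exon. No other gene of the table overlaps them. A stretch of 120 bases near the start of the coding part is shown because it tells the genes apart and shows how near AF067063 is to a neighbour. It was read from the M21 transcripts of Tcstv1 (chr13:119893957-119894076), Tcstv3 (chr13:120317585-120317704) and AF067063 (chr13:119828539-119828658) on the strand of each gene, starting at coding base 19 for Tcstv1 and Tcstv3 and at coding base 1 for AF067063. Capitals mark bases that differ from Tcstv3.
Tcstv1: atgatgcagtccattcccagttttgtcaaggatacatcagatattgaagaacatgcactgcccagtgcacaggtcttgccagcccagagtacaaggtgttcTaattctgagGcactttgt
Tcstv3: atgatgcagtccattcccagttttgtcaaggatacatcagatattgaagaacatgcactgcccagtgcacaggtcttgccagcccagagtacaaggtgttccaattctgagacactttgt
AF067063: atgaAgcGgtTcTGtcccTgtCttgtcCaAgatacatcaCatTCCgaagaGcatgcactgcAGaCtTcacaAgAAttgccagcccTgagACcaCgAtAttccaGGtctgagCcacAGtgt
In these 120 bases Tcstv1 differed from Tcstv3 at 2 positions and AF067063 at 32. Over the aligned coding parts, Tcstv1 and Tcstv3 were 94.7% identical, with 27 differences in 510 bases, while AF067063 was 81.8% identical to Tcstv1 and 83.1% to Tcstv3. A neighbour, Gm21731, was 99.6% identical to AF067063, with 2 differences in 492 coding bases, and had the same 120 bases as AF067063 in the stretch shown.

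How reads that match several genes were treated is not given in the sources used here, and the likeness above bears on the counts. Of the windows of 100 bases in the transcripts, 6.44% in Tcstv1 and 7.79% in Tcstv3 occurred unchanged in another gene (each other or the relative Gm21818), against 56.5% in AF067063 (all in Gm21731). With windows of 50 bases the shares were 25.3%, 31.4% and 70.7%, and with windows of 150 bases they were 0%, 0% and 46.7%. Counts of AF067063 are thus uncertain with respect to Gm21731, and those of Tcstv1 and Tcstv3 to a smaller extent. The library totals ran from 14401452 to 39402840 reads on genes, with a median of 18276934, and the pair of SE KO Dux OE libraries was the deepest. In the other groups 3 counts per library amounted to between 0.133 and 0.211 CPM, the reads of a gene per TMM-scaled library size, and a level at or under 3 counts is called at the floor below. Pluripotency markers (7 genes such as Pou5f1 and Nanog, none at 0 in any group) summed to between 1703 CPM in SE KO RA and 7072 CPM in DMSO. Markers of other lineages (14 genes such as Gata6 and Cdx2, of which at most 2 were at 0 in both libraries of a group) summed to between 31.6 CPM in PlaB and 190 CPM in SE KO RA. Their part in the levels below was not tested.

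Tcstv3, the most abundant of the 3 per length, was near the floor in unperturbed cells and reached 170 ± 18.2 CPM per kb of exon in Dux OE. It had 4 counts in each ESC library and 2 in each DMSO library. In Dux OE it had 1682 and 2111 counts, or 123 and 143 CPM (133 ± 14.2 CPM, SD, n = 2). Every other group lay below both of these libraries. The mean was 514 times that of ESC, a fitted log2 difference of 8.97 (SE 0.293), on which the gene was chosen. In SE KO Dux OE Tcstv3 had 2705 and 1628 counts, or 71.8 and 53.3 CPM.

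Tcstv1 and AF067063 also had their highest levels in the groups with the Dux transgene. Tcstv1 had 0 and 2 counts in ESC, 0 in both DMSO libraries and 367 and 374 in Dux OE, or 26.8 and 25.3 CPM, which was 404-fold over ESC with a counting interval of 111 to 3339. In SE KO Dux OE it had 325 and 163 counts, or 6.98 ± 2.33 CPM. AF067063 had no counts in ESC or DMSO, and 502 and 564 in Dux OE, or 37.4 ± 1.07 CPM, at least 193-fold over the floor of 3 counts per library in ESC. In SE KO Dux OE it had 775 and 620 counts, or 20.4 ± 0.204 CPM. Intervals, floors and bounds cover counting error only. The plot of levels by library shows both groups with the Dux transgene apart from the other 11.

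**Figure D1:**
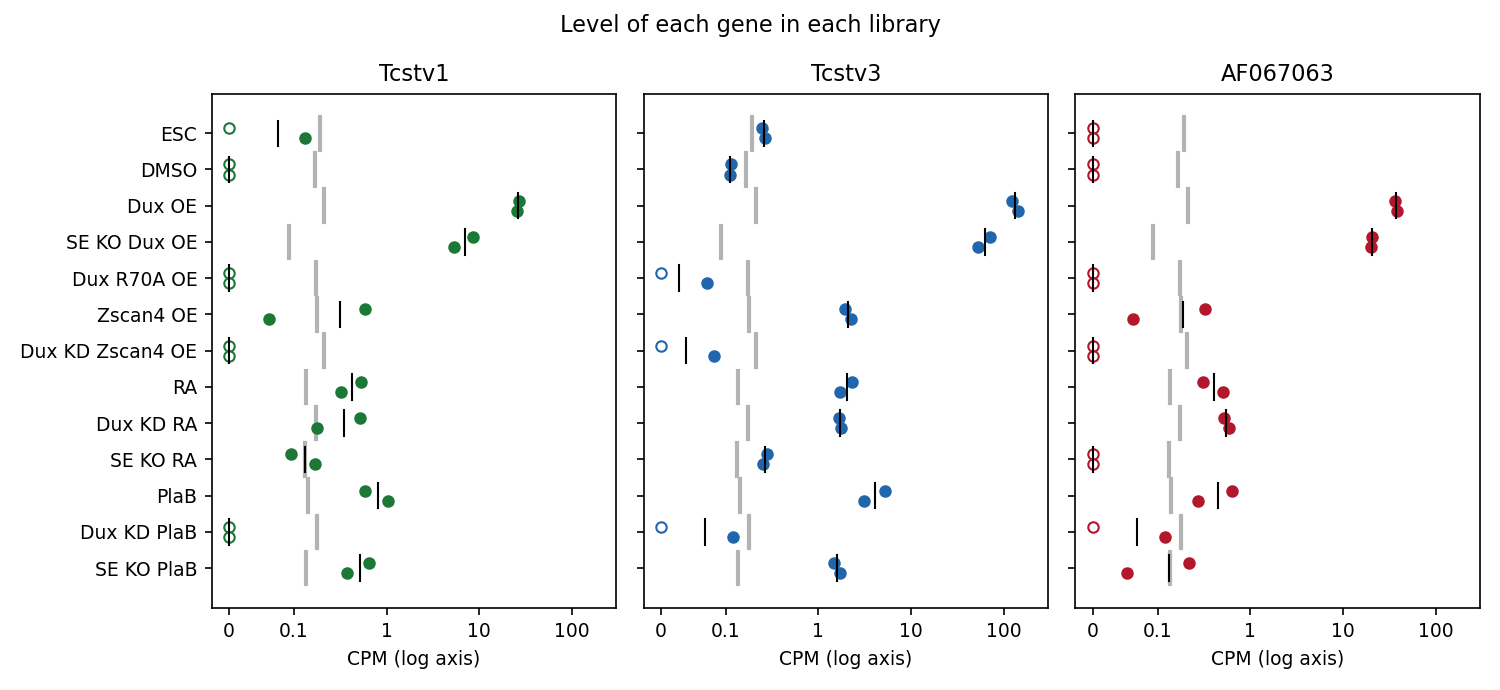
Level of Tcstv1, Tcstv3 and AF067063 in each of the 26 libraries, in CPM on a log axis whose left end stands for 0 (open points). Each coloured point is 1 library, black bars are group means of n = 2 and grey bars mark the level of 3 counts. No library outside Dux OE and SE KO Dux OE exceeds 5.18 CPM in any of the 3 genes.

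The order of the groups below Dux OE and SE KO Dux OE differed between the 3 genes, and most neighbouring groups overlapped. Zscan4 OE and SE KO PlaB changed places between Tcstv3 and Tcstv1. For Tcstv3 it ran PlaB (4.13 CPM), Zscan4 OE (2.08), RA (2.03), Dux KD RA (1.72), SE KO PlaB (1.60), SE KO RA (0.267), ESC (0.258) and then DMSO and the 3 groups that had at most 2 counts in a library. PlaB did not overlap Zscan4 OE. Zscan4 OE, RA, Dux KD RA and SE KO PlaB overlapped their neighbours in the order, and SE KO PlaB did not overlap SE KO RA. For Tcstv1 the order was PlaB (0.812 CPM), SE KO PlaB (0.512), RA (0.427), Dux KD RA (0.347), Zscan4 OE (0.318) and SE KO RA (0.131), and every neighbouring pair overlapped. For AF067063 it was Dux KD RA (0.553 CPM), PlaB (0.451), RA (0.410), Zscan4 OE (0.189), SE KO PlaB (0.132) and Dux KD PlaB (0.0598), again with every neighbouring pair overlapping. In bulk samples a change in the share of cells that express a gene cannot be told apart from a change in RNA per cell.

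RA and PlaB raised all 3 genes over DMSO, to levels far under those in Dux OE. A gene was called where the Benjamini-Hochberg adjusted p of edgeR's quasi-likelihood test was under 0.05 and the fitted change at least 2-fold. In RA, Tcstv3 had 53 and 37 counts (2.03 ± 0.432 CPM), Tcstv1 12 and 7, and AF067063 7 and 11. No RA library overlapped a DMSO library in any of the 3 genes, which held in the same direction for 43.6% of all genes. Tcstv3 was higher than in DMSO by 4.11 on the log2 scale (SE 0.541, adjusted p = 2.7e-07), a ratio of 18.3 with a counting interval of 6.89 to 68.5. Tcstv1 and AF067063, at 0 in DMSO, were at least 2.55-fold and 2.45-fold over the floor (adjusted p = 0.00334 and 0.00105). All 3 members were called higher, where 20.6% of all genes tested were. All 3 passed the filter on low counts, which used the libraries of all groups, and had at least 163 counts in each library with the Dux transgene.

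PlaB gave 107 and 68 counts of Tcstv3 (4.13 ± 1.48 CPM), 12 and 23 of Tcstv1 and 13 and 6 of AF067063. Again no library overlapped DMSO, as for 47.6% of all genes in this direction. Tcstv3 exceeded DMSO by 5.13 on the log2 scale (SE 0.470, adjusted p = 1.4e-10), a ratio of 36.8 with a counting interval of 14.1 to 136. Tcstv1 was at least 4.86-fold and AF067063 at least 2.69-fold over the floor (adjusted p = 1.4e-04 and 4.8e-04). All 3 were called higher, beside 32.3% of all genes. Of the 7 pluripotency markers, 6 were called lower than in DMSO with RA (median log2 change of the 7 -1.17) and 6 with PlaB (median -2.80, lowest Sox2 at -4.50). Of all genes 10.4% were called lower with RA and 26.6% with PlaB. The part of the markers in the changes of the members was not tested.

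Between PlaB and RA, 1 of the 3 genes passed the test. Tcstv3 was 2.04 times higher in PlaB (log2 1.01, SE 0.249, adjusted p = 6.6e-04), at the edge of the 2-fold threshold, and it was not called without PlaB replicate 1 (0.55 on the log2 scale, adjusted p = 0.0859), nor without RA replicate 2 (0.79, adjusted p = 0.0220). Tcstv1 (log2 0.92, SE 0.572, adjusted p = 0.149) and AF067063 (log2 0.13, SE 0.539, adjusted p = 0.839) were not called. Thus 1 of 3 members was called where 57.9% of all genes were called in 1 or the other direction.

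Zscan4 OE raised Tcstv3 evenly and the other members unevenly. Tcstv3 had 30 and 41 counts (2.08 ± 0.202 CPM), 4.15 over DMSO on the log2 scale (SE 0.555, adjusted p = 1.2e-06), a ratio of 18.8 with a counting interval of 7.03 to 70.9. Tcstv1 had 9 and 1 counts and AF067063 5 and 1, so that replicate 1 carried most of both. Both were called (adjusted p = 0.0239 and 0.0389), at least 1.90-fold and 1.13-fold over the floor, but without Zscan4 OE replicate 1 neither was (adjusted p = 0.392 and 0.335). They were also not called without DMSO replicate 1 (adjusted p = 0.0980 and 0.136) or DMSO replicate 2 (adjusted p = 0.107 and 0.144). All 3 members were called higher with all libraries, beside 7.63% of all genes. DMSO is not the vehicle of doxycycline. Against ESC, which entered the choice of the members and is therefore only described, Tcstv3 was 8.08 times higher, Tcstv1 4.59-fold higher with a counting interval of 0.977 to 43.0, and for AF067063 no bound above 1 could be given.

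The Dux transgene in SE KO cells uses none of the libraries that chose the members, and there a rise over DMSO could be tested. SE KO Dux OE differs from DMSO in genotype, doxycycline and transgene together, and the part of each was not tested. Over DMSO, Tcstv3 was higher by 9.05 on the log2 scale (SE 0.329, adjusted p = 4.5e-18), a ratio of 569 with a counting interval of 222 to 2091. Tcstv1 was at least 41.7-fold and AF067063 at least 122-fold over the floor (adjusted p = 4.6e-09 and 1.2e-12). All 3 were called higher, beside 12.3% of all genes. Beside Dux OE in WT cells, whose values chose the members and are only described, the mean in SE KO Dux OE was 3.73 times lower for Tcstv1, 2.12 times lower for Tcstv3 and 1.83 times lower for AF067063, and no library of the 2 groups overlapped in any of them, which held in this direction for 33.1% of all genes. Duxf3 counts per library size were lower there too, with 55 and 39 counts (1.37 ± 0.130 CPM) in SE KO Dux OE and 55 and 48 (3.63 ± 0.541 CPM) in Dux OE. Whether reads of the transgene count on Duxf3 is not given in the sources used here.

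In Dux R70A OE the 3 genes were at the floor, as in DMSO. Dux R70A OE had no counts of Tcstv1 or AF067063 and 0 and 1 of Tcstv3, against 2 and 2 of Tcstv3 in DMSO. None of the 3 was called (adjusted p = 0.389 for Tcstv3, with the others at 0 in both groups), beside 9.05% of all genes in both directions. Of the 10 relatives of these genes that were tested (described below), BC147527 alone was called lower, with 0 and 0 counts against 2 and 3 in DMSO (adjusted p = 0.0330), and both groups were at the floor. Duxf3 had 0 counts in both Dux R70A OE libraries, against 55 and 48 in Dux OE and 3 and 0 in ESC, so the counts on Duxf3 do not show the mutant transgene. Beside Dux OE, again as a description, Tcstv3 was 4595 times lower with a counting interval of 824 to 181558, Tcstv1 at least 149-fold lower and AF067063 at least 214-fold lower. The plot of fitted differences sets these comparisons side by side. Those with DMSO share its 2 libraries.

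**Figure D2:**
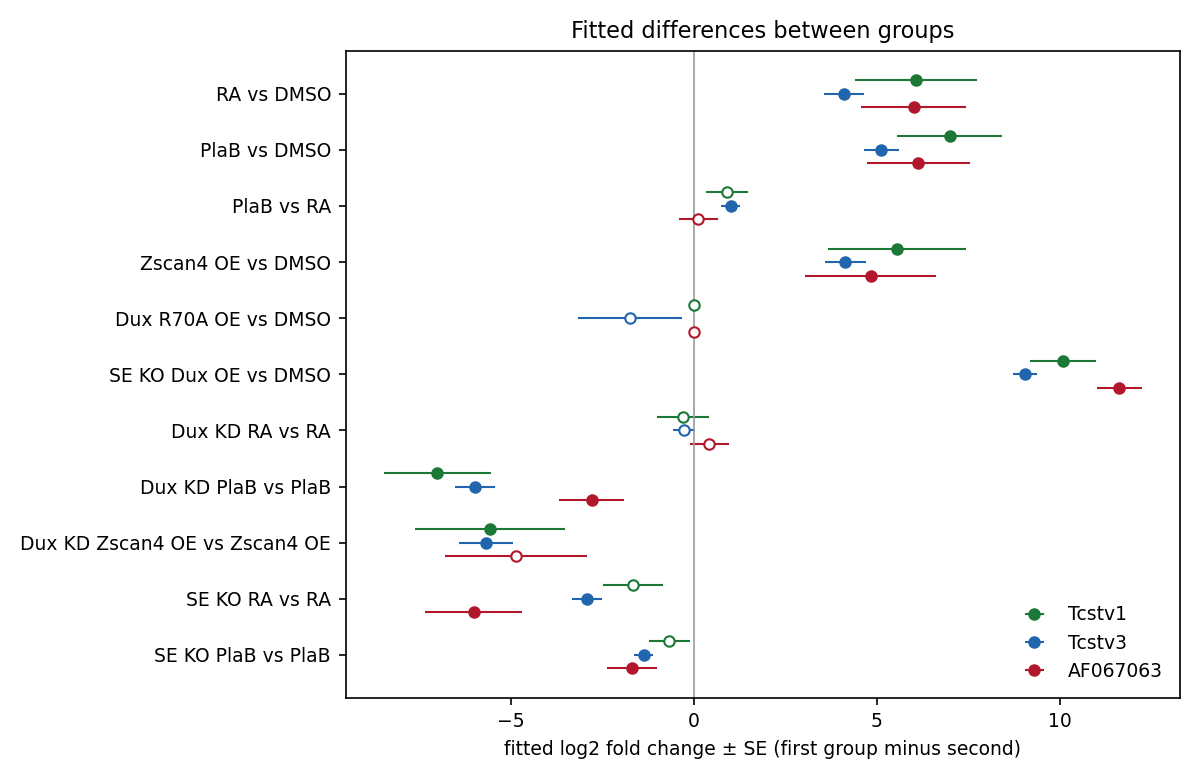
Fitted log2 fold change with its SE for the 3 genes in the 11 comparisons that use neither Dux OE nor ESC. Filled points passed the test (edgeR adjusted p under 0.05 and at least 2-fold) and open points did not. Points of genes at 0 in a group depend on the fit's prior count, and only their direction should be read. All 3 genes sit right of 0 in RA, PlaB, Zscan4 OE and SE KO Dux OE against DMSO and around 0 for Dux KD with RA.

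The members were far more abundant in Dux OE, whose values chose them, than in PlaB, while many other 2C genes were not. Their high ratios of Dux OE to PlaB are thus partly set by that choice. Zscan4c had 55218 and 55541 counts in PlaB (2598 ± 109 CPM) and 11126 and 11989 in Dux OE (811 ± 0.613 CPM), and Duxf3 had 191 and 181 counts in PlaB (8.73 ± 0.734 CPM). Both were thus higher in PlaB than in Dux OE, whereas the mean of Dux OE was 32.0 times that of PlaB for Tcstv1, 32.1 times for Tcstv3 and 82.8 times for AF067063. Among 35 other 2C genes above the floor in both groups, the ratio of Dux OE to PlaB had a median of 1.01 and ran from 0.0736 (Obox6) to 17.7 (Zfp352), with 17 genes lower in Dux OE. With SE KO Dux OE, which the choice did not use, in place of Dux OE, the ratio to PlaB was 8.59 for Tcstv1, 15.1 for Tcstv3 and 45.3 for AF067063. For the 35 other 2C genes it had a median of 0.506 and a highest value of 8.28, again of Zfp352. The 3 members lay above these 35, Tcstv1 only slightly. Of 41 such genes, those with 3 counts or fewer in a library were left out. Among them Tdpoz1 had 2.02 CPM in Dux OE, 0.974 in SE KO Dux OE and 0.0227 in PlaB. Tdpoz2 had 1.94, 0.876 and 0, and Obox3 2.31, 1.14 and 0.359. The members are thus not set apart from all 2C genes. The sequence relatives of the members, described below, were also higher in Dux OE. Of 11 relatives 6 were above the floor, with ratios from 11.7 (D13Ertd608e) to 81.5 (BC147527) and a median of 20.8, and with SE KO Dux OE from 5.36 to 44.5 with a median of 9.45. BC147527 thus had a higher ratio than Tcstv1 and Tcstv3. The ratios were chosen after the levels were seen and are given without a test.

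**Figure D3:**
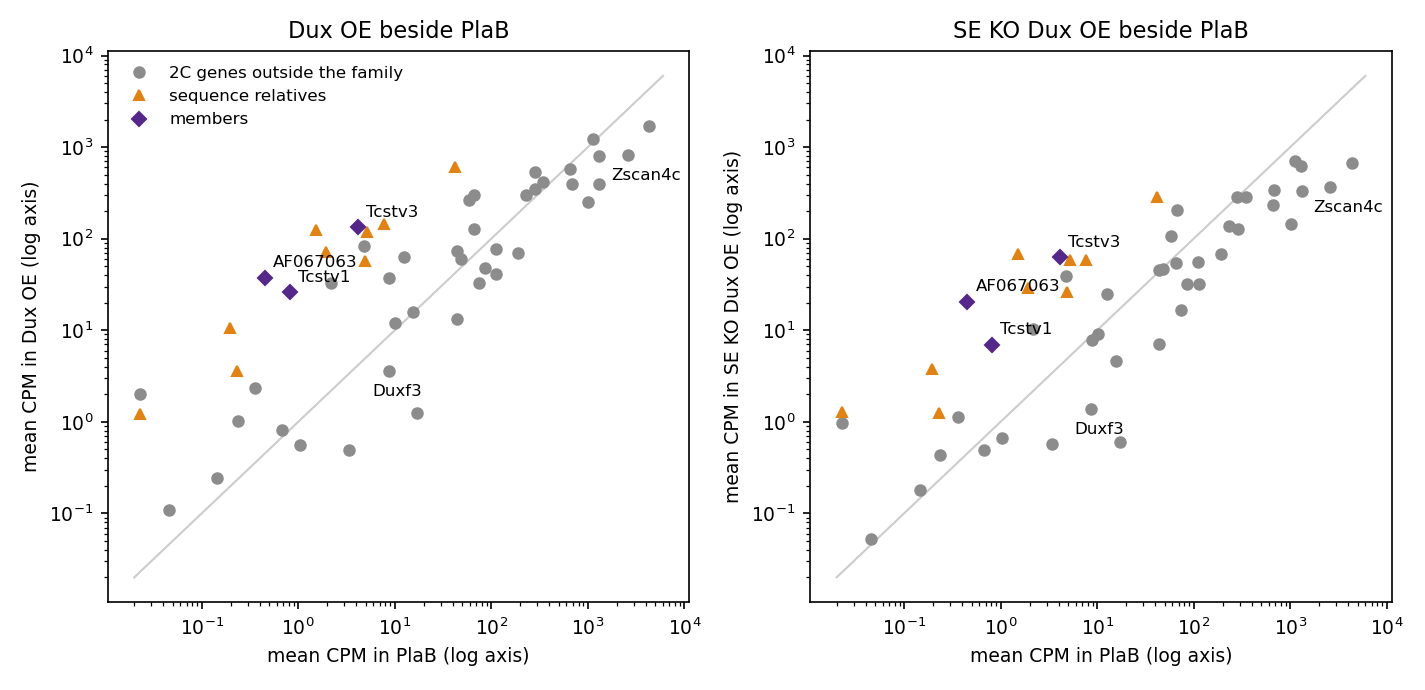
Mean level (n = 2) in Dux OE (left) and SE KO Dux OE (right) against PlaB, in CPM on log axes. Diamonds are the 3 genes, triangles their sequence relatives and grey points the other listed 2C genes. Genes at 0 in either group are left out, and the line marks equal levels. The 3 genes lie above the line in both panels, at ratios of 8.59 to 82.8, while Zscan4c and Duxf3 lie below it, at higher levels in PlaB. The values of Dux OE chose the 3 genes, which partly sets their place in the left panel.

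With Dux knockdown no member passed the test in RA, while in PlaB and Zscan4 OE each was left with at most 2 counts in a library. The knockdown target came first as a check of the labels: Duxf3 fell from 49 and 59 counts in RA to 16 and 6 in Dux KD RA (log2 -1.93, adjusted p = 0.00154), from 191 and 181 in PlaB to 1 and 0, and from 27 and 17 in Zscan4 OE to 1 and 0. A remainder of Duxf3 RNA was thus measured with RA (0.636 ± 0.400 CPM), and in the other inductions it was at the floor.

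In Dux KD RA, Tcstv3 had 29 and 30 counts (1.72 ± 0.0720 CPM) against 53 and 37 in RA, Tcstv1 9 and 3 against 12 and 7, and AF067063 9 and 10 against 7 and 11. The CPM of Tcstv1 and Tcstv3 overlapped between the groups. Those of AF067063 lay barely apart, at 0.308 and 0.512 in RA and 0.517 and 0.589 in Dux KD RA. How many of all genes were apart in this comparison was not counted, so no rise is read from it. The fitted log2 differences were -0.30 (SE 0.710, adjusted p = 0.784) for Tcstv1, -0.25 (SE 0.301, adjusted p = 0.560) for Tcstv3 and 0.43 (SE 0.540, adjusted p = 0.569) for AF067063. None of the 3 was called, beside 4.53% of all genes called lower. With an SE of 0.710, a fall of 2-fold lies within 2 SE of the value of Tcstv1.

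In Dux KD PlaB, Tcstv1 had no counts and Tcstv3 and AF067063 0 and 2 each. Tcstv3 fell by 5.97 on the log2 scale (SE 0.538, adjusted p = 1.1e-10), a ratio of 69.0 with a counting interval of 18.8 to 575. AF067063 was lower 7.50-fold with a counting interval of 1.81 to 66.4 (adjusted p = 0.00767), and Tcstv1 at least 4.56-fold (adjusted p = 1.9e-04). All 3 were called lower, beside 28.8% of all genes. Of the 7 pluripotency markers 6 were called higher than in PlaB (median log2 change 1.83), and their part was not tested. Calls were common in this comparison. With the replicate number added to the fit, 11455 of 20953 genes were called in 1 or the other direction. AF067063 was not called without PlaB replicate 1 (adjusted p = 0.110) or Dux KD PlaB replicate 1 (adjusted p = 0.0961).

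In Dux KD Zscan4 OE the only count of a member was 1 of Tcstv3. Tcstv3 fell by 5.67 on the log2 scale (SE 0.743, adjusted p = 1.4e-06), a ratio of 60.1 with a counting interval of 10.5 to 2408. Tcstv1 was called as well, at least 1.51-fold lower (adjusted p = 0.0396), but not without Zscan4 OE replicate 1 (adjusted p = 0.433) or either knockdown library (adjusted p = 0.141 and 0.119). AF067063 was not called (adjusted p = 0.0608), and its bound did not exceed 1. Thus 2 of 3 members were called lower, beside 5.35% of all genes.

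Whether the effect of the knockdown differed between inductions was tested by interaction contrasts of the same model. The difference between its effects in PlaB and in RA was -6.71 for Tcstv1 (SE 1.91, adjusted p = 0.00382), -5.72 for Tcstv3 (SE 0.706, adjusted p = 5.9e-08) and -3.21 for AF067063 (SE 1.06, adjusted p = 0.0111) on the log2 scale. All 3 were called lower, beside 26.6% of all genes. Without PlaB replicate 1 or Dux KD PlaB replicate 1, AF067063 was not called (adjusted p = 0.0891 and 0.0809). Between Zscan4 OE and RA the difference was -5.42 for Tcstv3 (SE 0.884, adjusted p = 3.8e-05). It was -5.27 for Tcstv1 (adjusted p = 0.0921) and -5.27 for AF067063 (adjusted p = 0.0537), so that 1 of 3 members was called lower, beside 6.22% of all genes. Both contrasts share the RA and Dux KD RA libraries, and values against groups at 0 depend on the prior count of the fit.

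SE KO lowered Tcstv3 and AF067063 in both chemical inductions, and by their interaction contrast more with RA. With RA, SE KO cells had 6 and 6 counts of Tcstv3 (0.267 ± 0.0179 CPM), 2 and 4 of Tcstv1 and none of AF067063. No library overlapped RA, which held in this direction for 39.8% of all genes. Tcstv3 was 7.61 times lower than in RA (log2 -2.91, SE 0.419, adjusted p = 2.5e-06) and AF067063 at least 3.08-fold lower (adjusted p = 7.5e-04), while Tcstv1 was 3.26 times lower and not called (log2 -1.65, SE 0.815, adjusted p = 0.105). Thus 2 of 3 were called lower, beside 11.0% of all genes. Without replicate 1 of SE KO RA, whose genotype label reads WT, the log2 differences were -2.97 for Tcstv3 (adjusted p = 1.0e-04), -6.00 for AF067063 (adjusted p = 0.00757) and -1.31 for Tcstv1 (adjusted p = 0.319). The 2 libraries of SE KO RA had similar Tcstv3 levels, 0.279 and 0.254 CPM, although their genotype labels differ. Duxf3 had 2 and 10 counts there against 49 and 59 in RA. Pluripotency markers were called lower in SE KO RA for 4 of 7 (median log2 change -1.24), and without its replicate 1 for 5 of 7 (median -1.19), and their part was not tested.

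With PlaB, SE KO cells had 34 and 37 counts of Tcstv3 (1.60 ± 0.178 CPM), 15 and 8 of Tcstv1 and 5 and 1 of AF067063. Duxf3 had 38 and 45 counts there (1.87 ± 0.319 CPM) against 191 and 181 in PlaB (8.73 ± 0.734 CPM). Tcstv3 was 2.58 times lower than in PlaB (log2 -1.36, SE 0.259, adjusted p = 3.9e-05) and AF067063 3.42 times lower (log2 -1.68, SE 0.683, adjusted p = 0.0326), while Tcstv1 overlapped PlaB (log2 -0.66, SE 0.551, adjusted p = 0.290). Thus 2 of 3 were called lower, beside 26.1% of all genes, while 5 of 7 pluripotency markers were called higher (median log2 change 1.87), whose part was not tested. With the replicate number added to the fit, 10847 of 20953 genes were called in 1 or the other direction. Without PlaB replicate 1 neither was called (log2 -0.88 for Tcstv3, adjusted p = 0.0106, and -0.91 for AF067063, adjusted p = 0.367), and without SE KO PlaB replicate 2 AF067063 was not (adjusted p = 0.235).

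The loss in SE KO was smaller with PlaB than with RA for Tcstv3, by 1.54 on the log2 scale (SE 0.532, adjusted p = 0.0134), and for AF067063, which was at 0 in SE KO RA, by 4.33 (SE 1.78, adjusted p = 0.0388). For Tcstv1 the difference was 0.99 (SE 0.994, adjusted p = 0.404). Thus 2 of 3 were called higher in this interaction, beside 28.3% of all genes. Without SE KO RA replicate 1 Tcstv3 was still called (1.63, adjusted p = 0.0395) and AF067063 was not (4.35, adjusted p = 0.105). Tcstv3 was also not called without SE KO RA replicate 2 (adjusted p = 0.0609) or RA replicate 1 (adjusted p = 0.0526). AF067063 was not called without RA replicate 2, SE KO RA replicate 2, PlaB replicate 2 or SE KO PlaB replicate 1 (adjusted p = 0.0728, 0.119, 0.0630 and 0.245). Zscan4c went from 122 to 13.6 CPM with RA and from 2598 to 161 CPM with PlaB, and its interaction, -0.84 on the log2 scale, had the other sign and was under 2-fold (adjusted p = 5.8e-06; -0.79 without SE KO RA replicate 1).

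Tcstv3 supplied most of the reads of the 3 genes wherever they could be measured. Per kb of exon its share of the summed level was 73.6% ± 1.93 (SD, n = 2) in Dux OE. It was 73.8% ± 2.77 in SE KO Dux OE, 76.8% ± 5.19 in RA and 82.2% ± 4.62 in PlaB. The exon length used for Tcstv1, 1398 bases, covers its whole span, while its 2-exon transcript has 875 bases. For Tcstv3 (779 bases) and AF067063 (885 bases) the length is that of the 2-exon transcript. Per kb, Tcstv1 is thus understated beside the others where its 2-exon transcript is the one expressed. The share of AF067063 per kb was 18.3% ± 0.953 in Dux OE, 21.6% ± 3.52 in SE KO Dux OE and 7.64% ± 2.13 in PlaB, and that of Tcstv1 was 8.09% ± 0.977, 4.54% ± 0.753 and 10.1% ± 6.75. The share of Tcstv1 did not overlap between Dux OE and SE KO Dux OE, with 8.78 and 7.40% against 5.08 and 4.01%. The share of AF067063 in PlaB, 9.14 and 6.13%, lay below both libraries of Dux OE, 19.0 and 17.6%. Zscan4 OE showed the widest spread, with Tcstv3 at 76.1 and 96.6%.

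**Figure D4:**
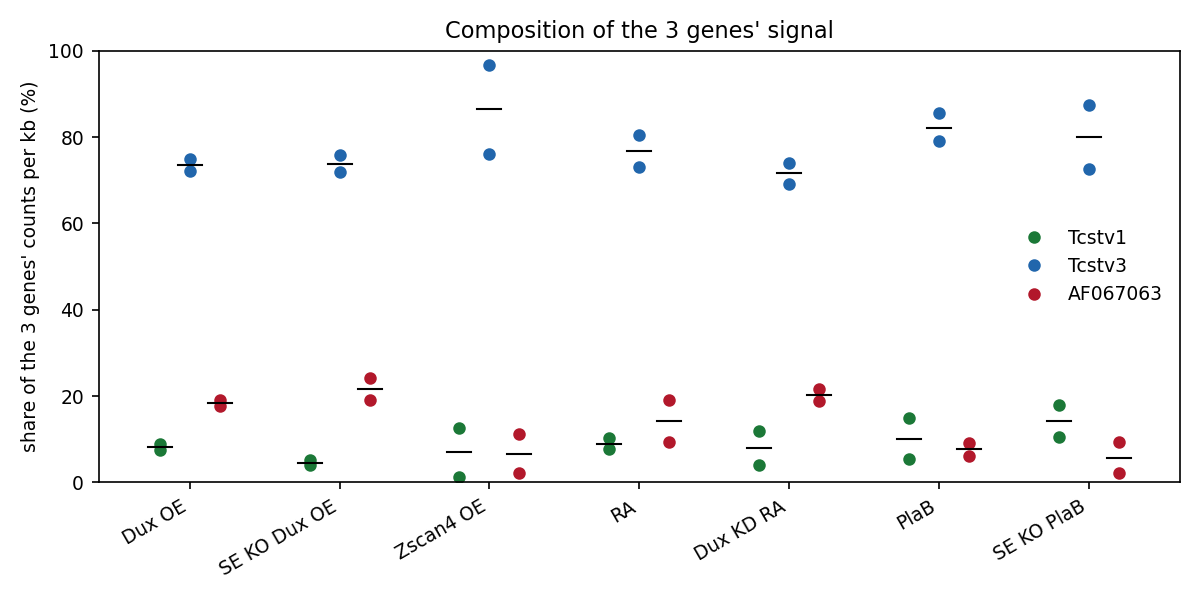
Share of each gene in the summed counts per kb of the 3 genes, in percent, for the 7 groups in which the 3 genes together had at least 43 counts in each library. Points are the 2 libraries and bars their mean. Tcstv3 holds 69.2 to 96.6% in every library, and the order of Tcstv1 and AF067063 varies between groups. The length used for Tcstv1 covers its whole span, which lowers its share.

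Over the 13 group means of log2 CPM the members went closely together, with Pearson r of 0.981 between Tcstv1 and Tcstv3, 0.964 between Tcstv1 and AF067063 and 0.952 between Tcstv3 and AF067063. Without the Dux OE and ESC groups these were 0.981, 0.931 and 0.921, and without SE KO RA replicate 1 they were 0.979, 0.961 and 0.952. The groups share library depth and the floor of many values, and reads may be shared between these genes, so the coefficients are descriptions.

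The 3 genes belong to a larger set of near copies. By alignment of the M21 transcripts, 11 other genes matched a member at 70% identity or more over at least 60% of the member's length. Of these, 9 lie in the same stretch of chromosome 13 (D13Ertd608e, Gm21761, B020031M17Rik, Gm20767, Gm21818, Gm21762, Gm21731, AF067061 and BC147527), while Gm8953 lies on chromosome 5 and Gm49052, which did not pass the filter, on chromosome 14. Summed over members and relatives, the level was 1339 ± 40.1 CPM in Dux OE, 619 ± 49.9 in SE KO Dux OE, 68.7 ± 11.2 in PlaB, 32.5 ± 2.97 in Zscan4 OE, 28.7 ± 5.18 in RA, 4.26 ± 0.477 in ESC and 0.233 ± 0.0257 in Dux R70A OE. The 3 members made up 196 ± 14.2 CPM of this in Dux OE. Per kb Gm21761 was the highest of all 14, with 444 ± 15.5 CPM per kb in Dux OE against 170 ± 18.2 for Tcstv3.

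Where relatives were called, the direction was that of the members. In SE KO Dux OE 10 of 10 tested were called higher than in DMSO, where 12.3% of all genes were. In RA 6 were (20.6% of all genes), in PlaB 8 (32.3%) and in Zscan4 OE 6 (7.63%). The median log2 changes of the relatives were 9.03, 4.10, 5.49 and 3.52, in that order. Medians over all genes were 0.07, 0.10, 0.22 and 0.04. The filter used the libraries of all groups. B020031M17Rik had counts only with the Dux transgene, and Gm8953 at most 2 in any other library. Outside these groups Gm21731 had at most 8 counts, and Gm21762 at most 7 apart from 12 in Dux KD RA replicate 2. All of these relatives thus passed the filter through the groups with the Dux transgene, and the 10 of 10 was in good part set by it. Dux KD lowered 7 of 10 with PlaB (28.8% of all genes), 6 with Zscan4 OE (5.35%) and 0 with RA (4.53%) by edgeR. With RA DESeq2 called 0 as well, and 3 of the relatives had an unadjusted p under 0.05 by edgeR. The highest of them with RA, Gm21761, went from 451 and 323 to 174 and 188 counts in Dux KD RA, a log2 change of -0.73 (SE 0.139, adjusted p = 1.5e-04) that was under 2-fold. SE KO lowered 6 of 10 with RA (5 without SE KO RA replicate 1), beside 11.0% of all genes. With PlaB it lowered 3 of 10 (D13Ertd608e, Gm20767 and Gm21818, by log2 -1.56, -1.09 and -1.04). That is near the 26.1% of all genes called lower there. Gm21731, nearly identical to AF067063, had 3.75 CPM in SE KO Dux OE and 0.194 CPM in PlaB, and was at 0 in DMSO, ESC and Zscan4 OE. The heat map of group means shows the whole set.

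**Figure D5:**
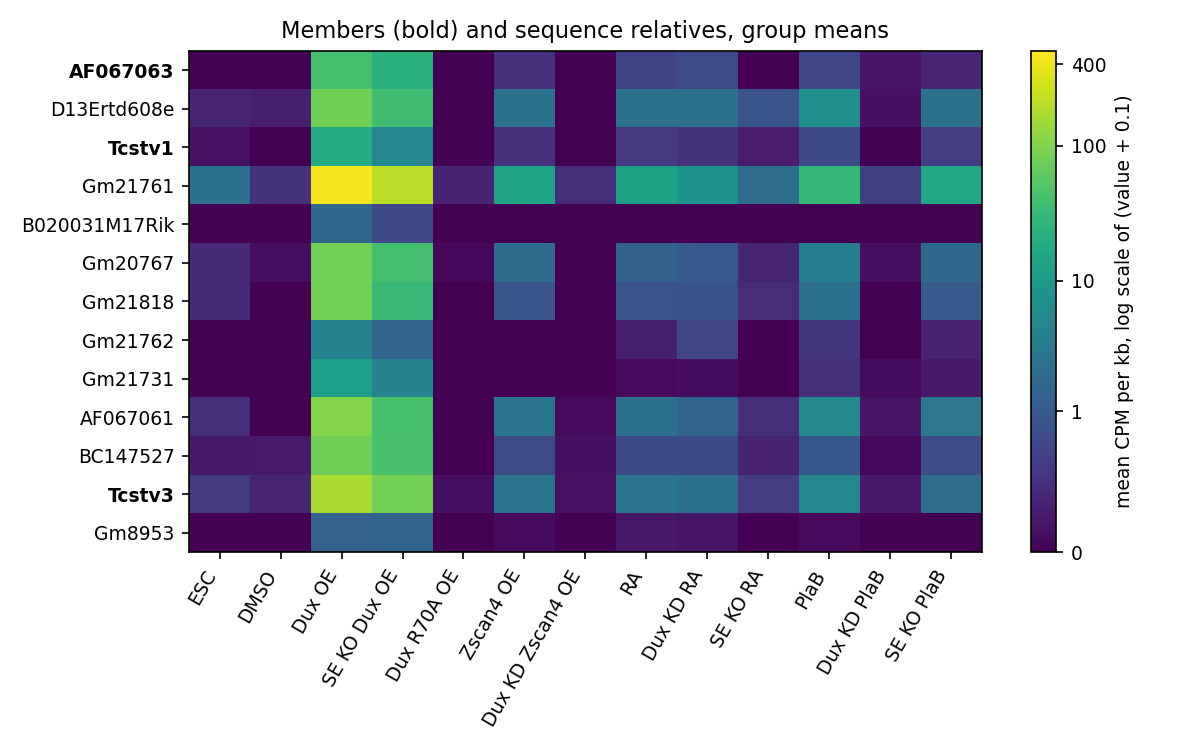
Group means (n = 2) in CPM per kb of exon for the 3 members (bold) and 10 relatives, in their order along chromosome 13 with Gm8953 of chromosome 5 last; colour is on a log scale of the value plus 0.1. Dux OE and SE KO Dux OE are the brightest columns in every row, and DMSO, Dux R70A OE, Dux KD Zscan4 OE and Dux KD PlaB are dark.

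The promoters of the members are not in the RefSeq promoter table used here, which covers 250 bases before to 50 after a gene's start, but it holds those of 3 relatives. Those of Gm21761 (chr13:119913419-119913718, minus strand) and AF067061 (chr13:120262845-120263144, plus strand) are shown because both hold GATTNAATC, where N is any base, the core of the motif known for Dux. Build GRCm38.p6 was used and both strands were searched; capitals mark the match.
Gm21761: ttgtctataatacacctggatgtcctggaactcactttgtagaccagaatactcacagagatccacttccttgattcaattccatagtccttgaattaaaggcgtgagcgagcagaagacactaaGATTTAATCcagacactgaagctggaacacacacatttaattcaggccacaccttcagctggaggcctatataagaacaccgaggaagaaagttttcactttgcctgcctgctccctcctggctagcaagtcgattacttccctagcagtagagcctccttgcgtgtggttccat
AF067061: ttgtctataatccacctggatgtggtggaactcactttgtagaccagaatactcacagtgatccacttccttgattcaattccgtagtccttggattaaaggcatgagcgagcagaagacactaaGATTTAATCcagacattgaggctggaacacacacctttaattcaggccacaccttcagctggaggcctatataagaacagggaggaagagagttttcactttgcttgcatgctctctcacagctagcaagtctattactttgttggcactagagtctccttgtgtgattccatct
The match began 125 bases before the start in both. It occurred in 0.268% of the 32851 promoters of the table, among them that of Duxf3, and not in the window of BC147527. TGCACAC, a motif known for Zscan4, occurred in 4.40% of promoters and in none of these 3 windows, so that no match overlapped another. A match is a description of letters and no evidence of binding.

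Of the 43 genes within 500 kb of a member, 29 had at least 10 counts in a library. Outside the family, 13 of 31 genes passed the filter. In SE KO Dux OE 2 of these were called higher than in DMSO, Gm41077 (log2 2.11, adjusted p = 0.0112) and Gm20900 (log2 2.19, adjusted p = 0.00128), and the median log2 change of the 13 was 0.02. In RA 2 were called higher, Nnt (1.20) and Nim1k (1.01), with a median of -0.16. In PlaB 5 were higher (4833420G17Rik, Ccl28, 1700074H08Rik, Nim1k and Gm41077) and 2 lower (Gm21378 and Gm20900), with a median of 0.45. Of all genes 12.3%, 20.6% and 32.3% were called higher in these comparisons, in that order, and 26.6% lower in PlaB. The counts of neighbours lie near these shares. Gm20900 is a pseudogene inside BC147527 on the opposite strand, and without the strand setting of the counting its reads cannot be told apart from those of BC147527.

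The genes whose pattern was most like the members' mean over the 13 groups, among 18644 genes, were BC147527 (Pearson r 0.994), Gm21818 (0.994), Gm31641 on chromosome 16 (0.989), Gm7898 on chromosome 17 (0.986) and Gm5541 on chromosome 3 (0.985). The leading pair are relatives. Without the Dux OE and ESC groups 4 of these 5 stayed in the list, with Gm32932 as the other, and without SE KO RA replicate 1 also 4 of 5 stayed. By Spearman correlation none stayed, and Gm38271, Pramef25, Gm5576, Eif4a3l2 and Usp17ld led. Zscan4c had an r of 0.781 (place 583) and Duxf3 of 0.731 (place 651).

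Of 44 listed 2C genes, which include the relative Gm20767, 39 passed the filter. Most were called in the direction of Tcstv3 in the comparisons that follow, except in Dux KD RA and Dux R70A OE. In these Tcstv3 itself was not called, nor were most of the 39. Higher than in DMSO were 33 in RA (highest BB287469, log2 10.72), 35 in PlaB (highest BB287469, 13.71) and 33 in Zscan4 OE (highest BB287469, 9.84), and 36 in SE KO Dux OE (highest Zfp352, 12.58). The filter used the libraries of all groups. Tdpoz1 and Tdpoz2 had at most 0.0272 CPM in PlaB, RA and Zscan4 OE, against at least 0.876 CPM in Dux OE and SE KO Dux OE. The 36 in SE KO Dux OE may thus be partly set by the filter. Dux KD lowered 35 with PlaB (lowest B020004J07Rik, -11.24), 32 with Zscan4 OE (lowest Tmem92, -10.66) and 9 with RA (lowest Usp17la, -2.74). In each, 1 was higher, in that order Zfp750 (1.03), Trim43b (2.54) and Tdpoz4 (1.66). SE KO lowered 31 with RA (lowest Usp17lb, -4.70; 29 without SE KO RA replicate 1) and 30 with PlaB (lowest Obox6, -4.40), where Zfp750 was higher (2.10). In Dux R70A OE 10 were called lower (lowest Usp17lb, -5.61) and 2 higher, Arg2 (2.46) and Zfp750 (2.27), than in DMSO. Of all genes, 20.6% were called higher in RA, 32.3% in PlaB, 7.63% in Zscan4 OE and 12.3% in SE KO Dux OE. Dux KD lowered 28.8% of all genes with PlaB, 5.35% with Zscan4 OE and 4.53% with RA. SE KO lowered 11.0% with RA and 26.1% with PlaB. In Dux R70A OE 9.05% were called in both directions together.

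A list of 22 genes of telomere maintenance was included because Tcstv genes have been linked to telomeres. In SE KO Dux OE 2 of the 22 were called higher than in DMSO, Terc (2.90) and Wrap53 (1.05), where 12.3% of all genes were. In Zscan4 OE none was called by edgeR or by DESeq2 and 10 had an unadjusted p under 0.05, beside 7.63% of all genes called higher. In RA 1 of 22, Terc, was higher and 6 were lower (lowest Naf1, -1.93), where 20.6% of all genes were higher and 10.4% lower. In PlaB 4 were higher (Acd, Terf2ip, Wrap53 and Ten1, by 1.54, 1.33, 1.08 and 1.32) and 7 lower (lowest Gar1, -3.93), where 32.3% of all genes were higher and 26.6% lower. Terc, the RNA template of telomerase, rose from 10 and 10 counts in DMSO to 90 and 45 in RA (log2 2.43, adjusted p = 2.6e-06) and 168 and 121 in SE KO Dux OE (log2 2.90, adjusted p = 1.7e-07). It fell in SE KO RA, with 8 and 9 counts (log2 -2.99, adjusted p = 3.2e-07, and -2.97 without replicate 1), and in Dux KD PlaB, with 2 and 1 (log2 -3.38, adjusted p = 2.9e-05). By contrast with Tcstv3 it was higher in SE KO PlaB, with 63 and 43 counts, than in PlaB, with 22 and 20 (log2 1.26, adjusted p = 0.00143). Terc RNA is mostly without a poly(A) tail, which these libraries selected for.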

How the data were processed

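Poly(A) RNA-seq libraries (26, in 13 groups of 2) were analysed from the deposited table of raw read counts per gene (55291 genes). Per the submitters' processing notes, the authors used FastQC, Trimmomatic, STAR and featureCounts with mm10, and DESeq2; versions, strand setting and the treatment of multi-mapping reads are not given in the sources used here. Counts were fitted in 1 model with edgeR 4.0.16 in R 4.3.3 (TMM factors, filterByExpr, quasi-likelihood test, Benjamini-Hochberg over 20953 genes). A call needed an adjusted p under 0.05 and a log2 change of at least 1. Tests were two-sided. Comparisons with Dux OE or ESC libraries, which chose the members, were described only. Members, lists and rules were chosen with earlier results of these data known.

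Library totals ran from 14401452 to 39402840, and CPM were counts over TMM-scaled library sizes of the tested genes. Floors were 3 counts per library, and counting intervals were exact at 95%. Relatives came from blastn 2.17.0 on GENCODE M21 transcripts, coding alignments from mafft 7.526, and promoters from RefSeq tables. Named genes were the members, neighbours within 500 kb, relatives, the extremes of each list and the 5 genes most like the members; genes behind counts of 5 or fewer were named after their values were seen. Alternatives were DESeq2 1.42.0, other scalings, no filter, a replicate block, fewer groups, the members summed and each replicate left out. The fits were tested on simulated data.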

Additional observations from a re-analysis of the deposited data

Results flagged for a closer look

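The effect of Dux knockdown differed between inductions by an interaction contrast of edgeR's quasi-likelihood fit. Between PlaB and RA it differed by -6.71 on the log2 scale for Tcstv1, by -5.72 for Tcstv3 and by -3.21 for AF067063. Between Zscan4 OE and RA it differed by -5.42 for Tcstv3. Duxf3 itself retained 16 and 6 counts in Dux KD RA and at most 1 count in a library of the other knockdown groups, and the part of this in the differences was not tested.

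The effect of SE KO differed between PlaB and RA by 1.54 for Tcstv3 and by 4.33 for AF067063, the loss being smaller with PlaB. AF067063 was at 0 in SE KO RA, so its value depends on the prior count of the fit, and SE KO RA includes the library whose genotype label reads WT.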

How the results depend on the processing

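With another setting the number of members called was 0 rather than 1 for PlaB against RA with no low-count filter. For the interaction of Dux KD between Zscan4 OE and RA it was 2 with library size only, 3 with no low-count filter and 3 with DESeq2, rather than 1, and for that of SE KO between PlaB and RA it was 1 rather than 2 with only the groups compared. With the 3 members summed, the change in Dux KD RA was -0.13, of the other sign to AF067063 alone. Per kb in place of counts, the share of Tcstv1 was 8.09, 4.54, 8.93 and 14.2% in Dux OE, SE KO Dux OE, RA and SE KO PlaB. That of Tcstv3 was 73.6, 73.8, 76.8 and 71.6% in Dux OE, SE KO Dux OE, RA and Dux KD RA. The length used for Tcstv1 covers its whole span. Over all genes, 1547 rather than 2332 were called in either direction for Dux KD Zscan4 OE with only the groups compared. The cause was not tested.

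Leaving out 1 replicate at a time, the lone library left being assumed to vary like the other groups, the members called ran from 0 to 1 for PlaB against RA, 1 to 3 for Zscan4 OE against DMSO, 1 to 3 for Dux KD Zscan4 OE, 0 to 2 for SE KO PlaB, 1 to 3 for the interaction of Dux KD between Zscan4 OE and RA and 0 to 2 for that of SE KO. The median log2 difference of the members ran from 8.82 to 11.98 for Dux OE against ESC, -3.47 to 0.00 for Dux R70A OE against ESC, -1.32 to -0.86 for SE KO Dux OE against Dux OE, 2.95 to 4.88 for Zscan4 OE against ESC and -1.20 to 0.00 for DMSO against ESC. Single genes that changed sign were AF067063 in PlaB against RA (-0.62 to 0.61), Tcstv1 in Dux KD RA (-1.25 to 0.27) and Tcstv1 in Zscan4 OE against ESC (-0.22 to 5.60).

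Same-numbered replicates did not deviate together (r from -0.0473 to 0.0237 over 2 pairs), so the numbers were not taken as pairs. With the replicate block, Tcstv3 in SE KO RA changed by -2.90 against RA, and the number of members called was the same in all 14 comparisons tested. Tcstv1 and AF067063 had at most 23 and 13 counts in a library without the Dux transgene, which limits their values.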
